A study of Rattus norvegicus and Ovis aries with 113 samples.

Results

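RNA of 8 subunit genes of the GABA-A receptor (GABRA2, GABRA3, GABRA4, GABRA5, GABRA6, GABRD, GABRG1 and GABRG3) was described across sheep and rat tissues. The genes were taken as a named list, by symbol without regard to case, and each symbol occurred once in the sheep table of 31304 genes and once in the rat table of 38675 genes. The tables held 17 symbols of GABA-A and GABA-rho subunits in sheep and 19 in rat, so the list covers a part of the family. In the sheep brain the 8 genes stood apart by place: GABRA6 and GABRD were highest in cerebellum, GABRA4 in basal ganglia, GABRA5 was low in cerebellum and pons, and GABRG1 varied least.

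Sheep samples came from 5 post-pubertal males, with 10 dissected brain regions and 1 sperm sample from each animal, which made 55 libraries. Rat samples came from post-pubertal Sprague Dawley animals that received no specific treatment: 15 males gave whole brain and a sperm sample taken from seminal fluid, and 14 females gave whole brain and ovary. The sheep too had no specific treatment, and the labels name no engineered allele in any group. RNA extraction and library kits differed between the species, so levels of sheep and rat cannot be told apart from the kits and no test was made between them.

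The GABA-A receptor is a chloride channel of 5 subunits arranged around a pore, and it opens when GABA, the main inhibitory transmitter of the brain, binds to it. Alpha subunits set where the channel sits and how it responds to drugs. Receptors with alpha 2 or alpha 3 and a gamma subunit sit mostly at synapses, while those with alpha 4 or alpha 6 and the delta subunit sit outside synapses and carry a steady inhibitory current. Alpha 6 is the textbook subunit of cerebellar granule cells, and alpha 5 that of hippocampal pyramidal cells.

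The upstream sequences below are shown for the pair of subunits that shared the cerebellum as their highest region and for GABRA4, which was highest in basal ganglia. They come from the RefSeq table of rat promoters (GRCr8), which held 7 of the 8 genes, and only bases before the outermost annotated end of each gene are printed, 5′ to 3′. Capitals mark matches, on either strand, to GGGCGG (the GC box, read CCGCCC on the other strand) and to TTGGC (a half-site of the nuclear factor I family, read GCCAA on the other strand). Gabra6 lies on the minus strand of chromosome 10, and the stretch is chr10:27327338-27327484. Gabrd lies on the minus strand of chromosome 5, and its stretch is chr5:171252710-171252959. Gabra4 lies on the plus strand of chromosome 14, and its stretch is chr14:36944497-36944746.
Gabra6: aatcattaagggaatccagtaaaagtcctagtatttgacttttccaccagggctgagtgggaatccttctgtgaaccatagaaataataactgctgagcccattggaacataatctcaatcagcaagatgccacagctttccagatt
Gabrd: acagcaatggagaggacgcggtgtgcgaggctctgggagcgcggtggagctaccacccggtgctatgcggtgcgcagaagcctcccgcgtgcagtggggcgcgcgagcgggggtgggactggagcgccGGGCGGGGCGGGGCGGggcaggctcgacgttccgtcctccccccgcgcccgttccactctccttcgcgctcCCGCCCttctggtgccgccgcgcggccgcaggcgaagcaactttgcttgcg
Gabra4: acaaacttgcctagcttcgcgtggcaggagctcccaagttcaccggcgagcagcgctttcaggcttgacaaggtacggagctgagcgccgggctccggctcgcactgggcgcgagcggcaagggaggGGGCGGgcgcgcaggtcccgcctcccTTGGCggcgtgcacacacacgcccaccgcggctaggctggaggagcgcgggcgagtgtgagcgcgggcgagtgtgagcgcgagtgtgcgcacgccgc

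Over the full 250 bases before the RefSeq start, the 2 genes with the highest levels in cerebellum had unlike upstream sequence. The Gabra6 window held 41.2% G and C and 0 CpG dinucleotides, and the Gabrd window held 74.0% and 35. The median of all 33465 rat windows of this length was 51.2% with 5 CpG, 7.81% of windows had no CpG and 2.58% had 35 or more. Gabrd carried 4 GC boxes, of which 3 followed each other with 1 shared base, at 122, 117 and 112 bases before the start. Gabra6 carried none, and its 1 nuclear factor I half-site, 78 bases before the start, lies in the 103 bases of the window inside the annotated gene that are not printed. The Gabra4 window, with 71.6% G and C and 33 CpG, held 1 GC box and 1 half-site. A GC box occurred in 30.5% of all windows and a half-site in 40.3%, so a match is a description of letters and not of a bound site.

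In the rat genome 7 of the 8 genes lie in a cluster with other subunit genes. Gabra4, Gabra2 and Gabrg1 follow each other on chromosome 14 between 36944747 and 37821651 (GRCr8), and Gabrg3 and Gabra5 lie on chromosome 1 between 116763332 and 117517424. Gabra6 lies on chromosome 10 from 27311965 to 27327337, and Gabra3 on X from 155301979 to 155543870, between Gabre and Gabrq. Gabrd on chromosome 5 (171240813 to 171252709) is the one outside such a cluster. All are protein-coding. Sheep positions are not given, for want of an annotation of that genome here.

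Library totals, in units of 1000000 counts, ranged from 46.7 to 72.4 in sheep brain, 13.7 to 65.1 in sheep sperm, 38.2 to 119 in rat brain, 13.7 to 65.1 in rat sperm and 50.5 to 60.3 in rat ovary. Levels are given as counts per 1000000 (CPM) of a library total scaled by TMM factors, which correct for a few genes taking a large share. Sheep libraries were compared with the mean profile of each region over the other 4 sheep: 47 of 50 matched a region of their own class (neocortex, hippocampus with entorhinal cortex, basal ganglia, cerebellum or pons). The motor cortex library of sheep 687 matched hippocampus, and the entorhinal libraries of sheep 688 and 690 matched motor and posterior parietal cortex. Single cortical areas were seldom told apart by this match: 2 of 25 neocortical and 0 of 5 entorhinal libraries matched their own area, and 3 of 5 hippocampal ones did. On plain library totals the 8 subunits summed to 31.1 CPM in the brain of female rat 1 and 67.3 in that of male rat 4, the lowest of each sex, so correlations over rat brains are also given without this pair.

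A subunit was called in a region when edgeR's quasi-likelihood test of that region against the mean of the other 9 gave an adjusted p below 0.05 (Benjamini-Hochberg over all 21147 genes tested) and the log2 fold change was 1 or more in either direction. All 8 subunits differed among the 10 regions, where 76.7% of all genes did. Of the 80 region and subunit pairs, 29 were called, 17 higher and 12 lower. The higher ones include GABRA6 in cerebellum, pons and entorhinal cortex, a gene that fell under the low-count filter without cerebellum and pons. Pons had 7 of 8 subunits called (18.7% of all genes tested there), cerebellum 6 (28.8%), basal ganglia 4 (10.3%) and frontal cortex 3 (2.77%). Hippocampus (4.62%), motor cortex (1.64%), entorhinal cortex (2.24%) and prefrontal cortex (2.46%) had 2 each, and visual cortex (2.12%) had 1. In posterior parietal cortex (2.66%) 0 subunits were called by edgeR and 0 by DESeq2, and 1 had an unadjusted p below 0.05. The median log2 fold change over the 8 was -1.56 in pons (0.03 over all genes tested) and -0.91 in cerebellum (-0.04). It was 0.36 in basal ganglia (-0.01), -0.05 in hippocampus (0.01), 0.42 in entorhinal cortex (0.02) and between -0.07 and 0.59 in the 5 neocortical areas. In bulk tissue fewer cells of a type and less RNA per cell cannot be told apart.

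**Figure D1:**
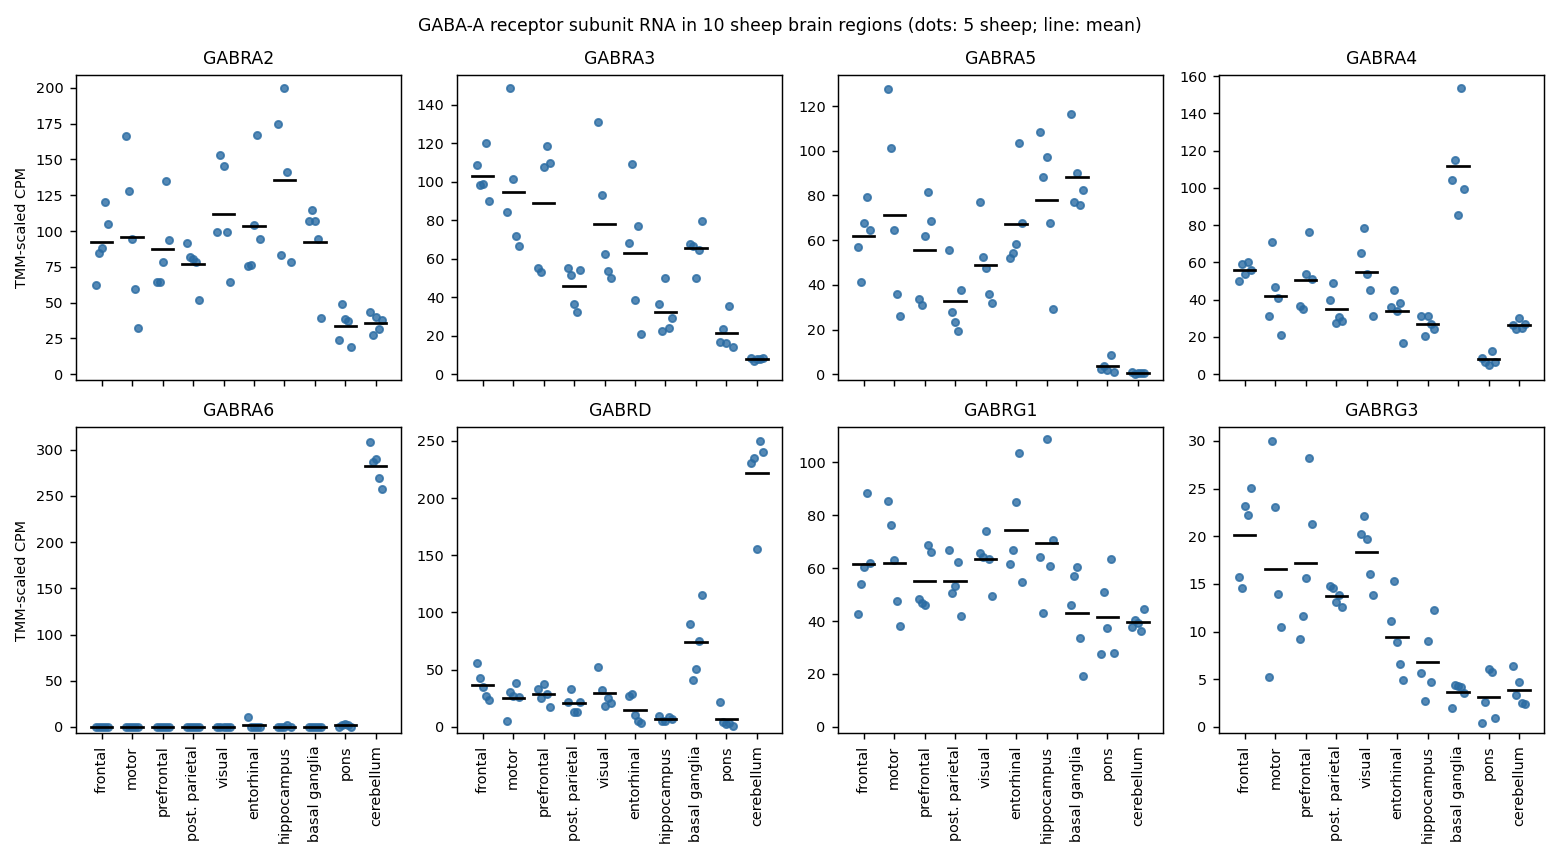
Level of each subunit in every sheep brain library (vertical axis, TMM-scaled CPM; horizontal axis, region; dots, 5 sheep; line, mean). GABRA6 stood at 258 to 309 CPM in cerebellum and at 10.6 CPM or less in every other library, and GABRA4 was highest in basal ganglia.

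GABRA6 encodes the alpha 6 subunit. Its level in cerebellum was 309 CPM in sheep 687, 286 in 688, 290 in 690, 270 in 694 and 258 in 699, a mean of 283 ± 19.6 (SD, n = 5). No library of another region came near: in the 25 neocortical libraries 4 reads were counted in all, and prefrontal and visual cortex had 0. Per library total, cerebellum was 116881-fold above the neocortex (95% counting interval 45648 to 428985) and at least 63140-fold above prefrontal and visual cortex, where the bound uses a floor of 3 counts over the 10 libraries. The call in cerebellum had an adjusted p of 9.04e-20 (edgeR). Without cerebellum and pons GABRA6 fell under the low-count filter. The filter thus favoured a higher level there, and this p is no added support for it.

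GABRA6 was also called higher in pons (adjusted p = 5.13e-05, edgeR) and in entorhinal cortex (adjusted p = 0.000292, edgeR). The test sets a region against the average of log levels, and 6 of the regions had means under 0.02 CPM. In pons its level was 0.448 CPM in sheep 687, 2.34 in 688, 2.90 in 690, 2.15 in 694 and 0.307 in 699. In entorhinal cortex it was 10.6 CPM in sheep 687, 0.301 in 690 and 0 in the other 3. The entorhinal call rested on sheep 687 alone: without that library the adjusted p was 0.829. That library held 30.1 CPM of CBLN3 and 12.4 of FAT2, which mark cerebellar granule cells, and 6.72 of PCP2, a Purkinje cell marker, against at most 4.04, 0.602 and 0.999 in the entorhinal libraries of the other sheep. Over the 6 granule markers its summed level was 140 CPM, the highest of the 5 entorhinal libraries (lowest 21.7), against 26.9 to 144 in pons and 3050.1 to 3839 in cerebellum. Their part in the GABRA6 level was not tested.

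GABRD encodes the delta subunit, the partner of alpha 4 and alpha 6 outside synapses. In cerebellum it was 231 CPM in sheep 687, 235 in 688, 155 in 690, 249 in 694 and 240 in 699. In basal ganglia it was 89.5, 41.2, 50.6, 75.1 and 115 CPM in the same order, so that the groups did not overlap. Against the other 9 regions it rose by 3.39 on the log2 scale in cerebellum (SE 0.29, adjusted p = 1.06e-13) and by 1.64 in basal ganglia (SE 0.33, adjusted p = 0.000118).

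GABRD was low at the other end of the order, in hippocampus and pons. Hippocampus held 9.75, 4.93, 4.84, 9.08 and 6.86 CPM in sheep 687, 688, 690, 694 and 699, and the log2 fold change was -2.13 (SE 0.46, adjusted p = 0.00148). Pons held 21.6 CPM in sheep 687 and 0.904 to 4.37 in the other 4, with a log2 fold change of -2.24 (SE 0.47, adjusted p = 9.40e-05). In neocortex its region means lay between 20.6 and 36.9 CPM, and the ranges of neighbouring regions overlapped from basal ganglia down to pons.

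GABRA4 encodes alpha 4, which joins delta in forebrain receptors. In basal ganglia it was 104 CPM in sheep 687, 115 in 688, 85.5 in 690, 153 in 694 and 99.2 in 699. Every one of these lay above all 45 libraries of the other regions, of which the highest had 78.7 CPM, and the log2 fold change was 1.76 (SE 0.16, adjusted p = 4.45e-12). Pons was the low end with 8.84, 6.80, 5.09, 12.6 and 6.66 CPM and a log2 fold change of -2.46 (SE 0.24, adjusted p = 1.51e-11). Cerebellum, at 26.5 ± 2.39 CPM (SD, n = 5), overlapped hippocampus at 26.9 ± 4.47 and was not called. The 2 alpha subunits that pair with delta were highest in different regions, and GABRD was high in both. The 6 markers of striatal medium spiny neurons summed to 1481 to 3869.9 CPM in basal ganglia and to at most 90.9 in any other region, and their part in the GABRA4 level was not tested.

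GABRA5 encodes alpha 5. Cerebellum held 0.954, 0.168, 0.327, 0.359 and 0.485 CPM in sheep 687, 688, 690, 694 and 699, and pons 2.46, 3.48, 1.92, 8.66 and 0.995. All 40 libraries of the other 8 regions lay higher, at 19.2 to 128 CPM. The log2 fold change was -6.59 in cerebellum (SE 0.51, adjusted p = 6.37e-15) and -3.32 in pons (SE 0.41, adjusted p = 4.90e-09).

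GABRA5 was called higher in 6 of the other 8 regions, with log2 fold changes of 1.10 in prefrontal cortex to 1.84 in basal ganglia. The prefrontal call was lost without sheep 690 (1.02, adjusted p = 0.0985, edgeR), 694 (0.96, past the p limit alone) or 699 (0.94, adjusted p = 0.0533, edgeR). All 6 calls rested on cerebellum and pons being in the comparison. With those 2 left out, an alternative chosen after seeing the data, 0 of the 6 were called, and the values ran from -0.15 in prefrontal cortex (adjusted p = 0.974) to 0.62 in basal ganglia (adjusted p = 0.0669). Hippocampus, the region the textbook role points to, held 108, 88.1, 97.1, 67.7 and 29.2 CPM, which overlapped basal ganglia (75.7 to 116) and entorhinal cortex (52.1 to 104).

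The same alternative was applied to every subunit. Of the 64 pairs of a subunit and 1 of the 8 remaining regions, 16 had been called and 5 were called without cerebellum and pons, of which 4 were shared, where 2.23% of all gene and region pairs were called. The 5 were GABRA4 and GABRD higher in basal ganglia, GABRG3 lower in basal ganglia, and GABRD and GABRA3 lower in hippocampus. GABRA3, GABRA4, GABRD and GABRG3 still differed among the 8 regions (28.9% of all genes did), while GABRA2 (adjusted p = 0.476), GABRG1 (0.231) and GABRA5 (0.0508) did not pass in that edgeR fit. GABRA6 fell under the filter on low counts there.

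GABRA3 and GABRA2 encode the alpha 3 and alpha 2 subunits of synaptic receptors. GABRA3 was highest in frontal cortex with 109, 98.4, 98.8, 120 and 89.8 CPM in sheep 687, 688, 690, 694 and 699, a log2 fold change of 1.22 (SE 0.20, adjusted p = 6.29e-05). It was lowest in cerebellum with 8.29, 6.78, 7.94, 7.79 and 8.64 CPM and a log2 fold change of -2.90 (SE 0.29, adjusted p = 1.07e-11). Motor cortex was called higher too, at 1.07 (SE 0.20, adjusted p = 0.000742), and without sheep 688 its value of 0.87 missed the fold limit. In hippocampus GABRA3 was 32.4 ± 11.1 CPM (SD, n = 5), and it was called lower there once cerebellum and pons were left out, at -1.20 (SE 0.26, adjusted p = 0.00212).

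GABRA2 was called in cerebellum and pons alone, in both cases lower. Cerebellum held 43.5, 27.6, 39.9, 31.6 and 37.6 CPM and pons 23.8, 49.1, 38.7, 36.9 and 18.7, with log2 fold changes of -1.27 (SE 0.27, adjusted p = 7.83e-05) and -1.39 (SE 0.27, adjusted p = 3.72e-05). Hippocampus had the highest mean, 136 ± 54.2 CPM (SD, n = 5), but its libraries spread from 78.3 to 200.2 CPM, and 24 libraries of other regions lay at or above the lowest of them.

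GABRG3 and GABRG1 encode gamma 3 and gamma 1, the less common gamma subunits. GABRG3 was highest in frontal cortex with 15.7, 14.6, 23.2, 22.2 and 25.0 CPM and was called higher in frontal (log2 fold change 1.26), prefrontal (1.01) and visual cortex (1.12). It was called lower in basal ganglia, where it was 1.96, 4.44, 4.32, 4.20 and 3.53 CPM (-1.46, SE 0.38, adjusted p = 0.00260), in pons (-1.72, SE 0.39, adjusted p = 0.000256) and in cerebellum (-1.38, SE 0.37, adjusted p = 0.00152). The prefrontal call was lost without sheep 690, 694 or 699 (0.75 to 1.13, adjusted p 0.0757 to 0.285) and without the motor cortex library of sheep 687, where 0.98 missed the fold limit, and the visual call without sheep 688 or 690 (adjusted p 0.0811 and 0.0645).

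GABRG1 was called in 0 of 10 regions, with 3 regions at an unadjusted p below 0.05 beyond cerebellum and pons, where the adjusted p of 0.0168 and 0.0460 passed and the fold did not. DESeq2 called it nowhere either. Its region means ran from 39.6 CPM in cerebellum to 74.3 in entorhinal cortex, a ratio of 1.88, against 4.06 for GABRA2, 6.45 for GABRG3, 13.1 for GABRA3, 13.9 for GABRA4, 33.5 for GABRD and 193 for GABRA5. Its difference among the 10 regions had an adjusted p of 0.00807, and of 0.0714 without sheep 690.

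**Figure D2:**
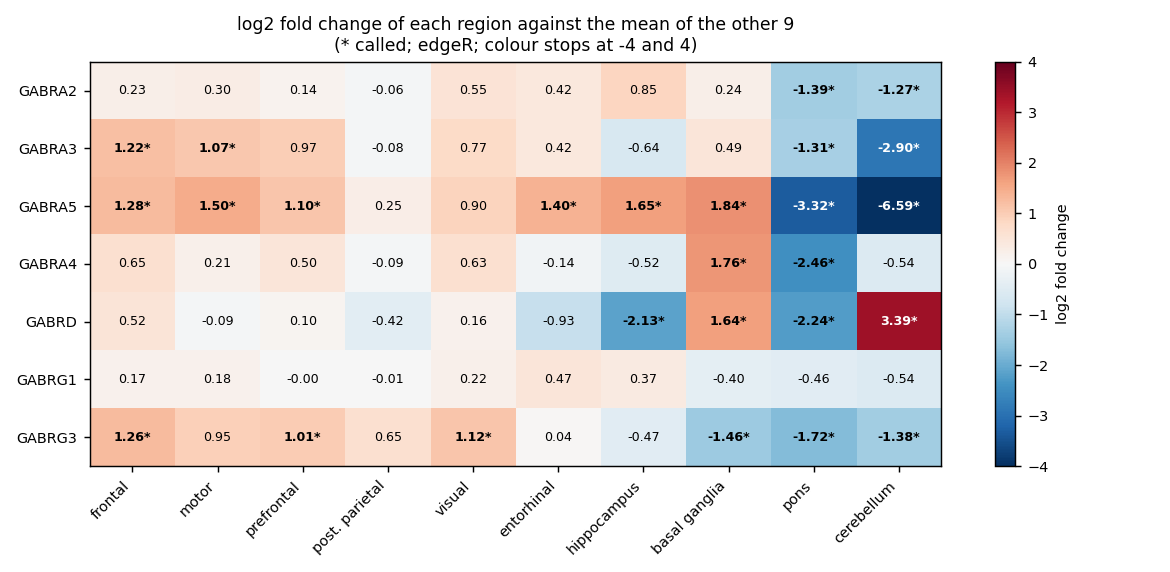
The log2 fold change of each subunit in each sheep region against the mean of the other 9 (rows, 7 subunits; columns, regions; asterisk, called by edgeR). GABRA6 is left out, since its fitted values depend on regions with 0 counts, and the pons and cerebellum columns hold the strongest falls, with GABRA5 at -6.59 in cerebellum.

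The mix was described as the share of each subunit in the summed counts of the 8, which leaves out the total. Counts are not divided by gene length, so a share was compared across regions for the same subunit and not between subunits. Each region's 5 libraries were set against the same 5 sheep's means over the other 9 regions by an exact two-sided permutation test, whose smallest possible p is 0.00794. The smallest adjusted p reached over the 80 pairs in this permutation test was 0.0181. In 41 of 80 pairs the share passed, 16 higher and 25 lower. The test sets single libraries against means of 9, which vary less, and it does not use that both come from the same sheep. Against the 45 other libraries one by one 14 of 80 pairs passed, and a paired sign-flip test over 5 sheep, which cannot reach the threshold, passed 0, so the shares are given as values with their spread. GABRA6 passed as lower in 9 regions because cerebellum is among the others, and 29 pairs passed when it was left out of the sum.

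In cerebellum all 8 shares passed. GABRA6 made up 45.7% ± 3.61 (SD, n = 5) of the summed counts there against 0.226% ± 0.131 in the other regions, and GABRD 35.7% ± 5.07 against 7.40% ± 1.75. GABRA5 made up 0.0729% ± 0.0437 against 14.4% ± 1.16. Shares are parts of one sum, so high shares of GABRA6 and GABRD lower the others, and the 8 passes are not 8 separate changes. GABRA4 and GABRG1 passed as lower shares, while their levels in cerebellum, each with a log2 fold change of -0.54, were not called.

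Other shares passed in basal ganglia, entorhinal cortex, hippocampus and pons. In basal ganglia GABRA4 made up 23.2% ± 4.64 (SD, n = 5) against 10.1% ± 0.612 and GABRA5 18.4% ± 2.77 against 12.4% ± 0.937, while GABRG1 was lower at 9.02% ± 3.74 against 18.0% ± 1.71. The GABRA5 share was as high in entorhinal cortex (18.5% ± 4.85, adjusted p = 0.0343, permutation) and, without passing, in hippocampus (21.9% ± 7.95). The regions set against these include cerebellum, at 0.0729% GABRA5, and pons, at 2.62%. In hippocampus GABRA2 made up 37.0% ± 5.26 against 22.5% ± 1.84, with an adjusted p of 0.0181 in the exact permutation test, although its level there was not called. In pons GABRG1 made up 34.7% ± 4.83 against 15.1% ± 1.18, the highest share of that subunit in any region, while its level in CPM was not raised.

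The 8 subunits together summed to 70.3 to 169 CPM in pons and to 221 or more in every library elsewhere. Pons had the lowest neuron marker sum, 692 to 3195 CPM over 6 genes against 2420.2 to 5616 elsewhere, and the highest oligodendrocyte sum, 18582 to 93575 CPM over 6 genes against at most 34592 elsewhere. Its astrocyte sum, 15302 to 21365 CPM over 5 genes, did not overlap any other region. The part of these in the pons values was not tested.

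In neocortex GABRA3 had a higher share in frontal (24.0% ± 2.47, SD, n = 5), motor (23.9% ± 4.86) and prefrontal cortex (22.8% ± 3.31) against 15.6% to 15.7% in the other regions. GABRG3 had a higher share in frontal (4.66% ± 0.949), posterior parietal (4.98%, with libraries from 4.28% to 5.55%), prefrontal (4.34% ± 0.795) and visual cortex (4.63% ± 0.483), against 2.93% to 3.00%. GABRA4 passed as higher in prefrontal (13.1% against 11.2%) and visual cortex (13.4% against 11.2%) too. The other regions include cerebellum, where GABRA3 made up 1.28%, GABRG3 0.625% and GABRA4 4.30% of the summed counts. These low shares pull the comparison means down, and the shares were not tested without cerebellum. No difference among the 5 neocortical areas themselves was tested.

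**Figure D3:**
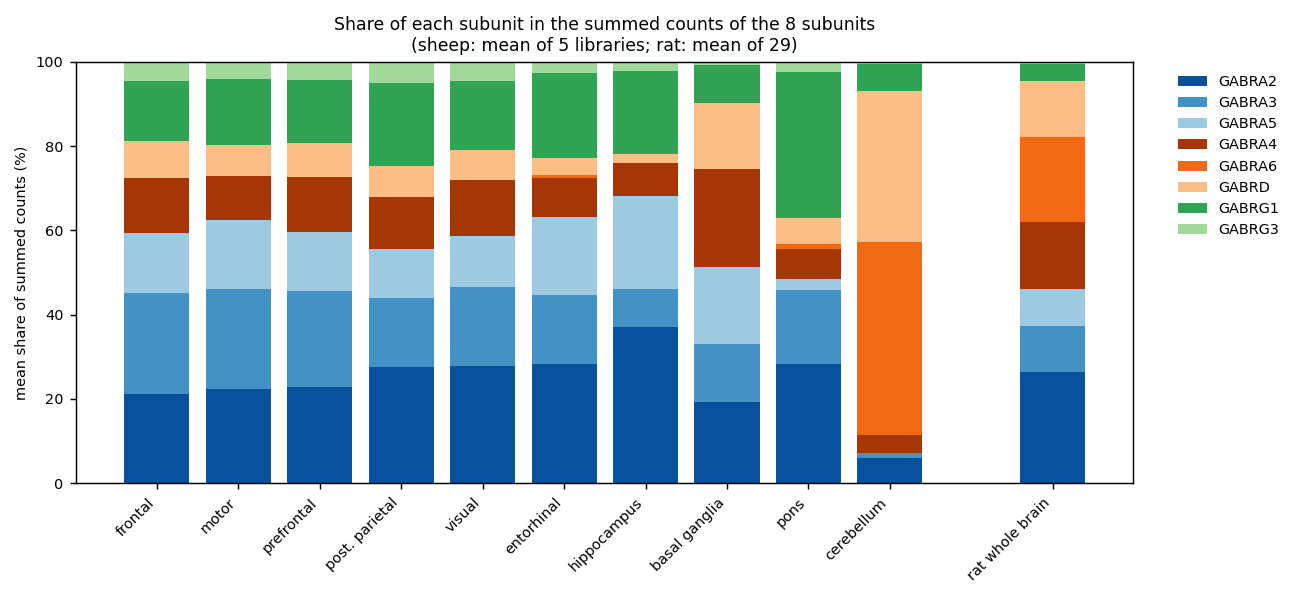
Mean share of each subunit (vertical axis, percent of the summed counts of the 8) in 10 sheep regions of 5 libraries each and in 29 rat whole brains. GABRA6 and GABRD make up most of the cerebellum bar, and GABRA6 is hardly visible in the other sheep regions.

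Genes with the most similar pattern over the 10 region means of log2(CPM + 1) were named by the highest Pearson r among 10617 genes, as a description over points that share the same sheep. GABRA6 was closest to CBLN3 (r = 0.998), a granule cell secreted protein, CRTAM (0.993) and BARHL2 (0.992). GABRA5 was closest to DAPK1 (0.992), STUM (0.990) and PDE2A (0.985), and GABRG3 to PARM1 (0.992) and OVOL2 (0.988). GABRA4 was closest to CTDSPL (0.988), STK25 (0.984) and CHCHD7 (0.983), and GABRD to FAM131B (0.980), RETREG2 (0.973) and FAAP20 (0.969). GABRA2 followed RAP2B (0.983), ZNF831 (0.977) and ANKRD33B (0.974), GABRA3 followed GCHFR (0.982), VOPP1 (0.981) and CHRM3 (0.978), and GABRG1 followed FEZF2 (0.971), NPY2R (0.965) and CREB3L1 (0.961). The median r over all genes lay between -0.05 and 0.12 for each subunit.

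The other genes of the GABA system were taken as lists. In pons, where 18.7% of all genes were called, 3 of 7 tested genes of GABA synthesis and transport were lower and 0 higher, led by GAD2, a GABA-making enzyme (log2 fold change -2.66), and 4 of 8 scaffold and assembly genes were lower, led by IQSEC3 (-1.74). Of the chloride transporters that set the direction of the GABA current, SLC12A5 was lower (-1.18) and SLC12A2 higher (2.09) in pons. In basal ganglia (10.3% of all genes called) 2 of 7 synthesis and transport genes were higher, led by SLC32A1, the vesicular GABA transporter (1.55). In cerebellum 2 of 7 were lower, led by SLC6A11 (-1.85), a share close to the 28.8% of all genes called there, and 0 of 8 scaffold genes were called.

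In rat whole brain the 8 subunits summed to 433 to 602 CPM, with a median of 523 over 29 animals. Gabra6 varied most among the more abundant subunits, from 26.1 to 205 CPM with a median of 104, and Gabra3 least, from 43.7 to 71.4 with a median of 55.8. Gabra2 ranged from 80.0 to 178 CPM (median 133), Gabra4 from 49.3 to 134 (83.4), Gabra5 from 36.7 to 61.1 (44.4) and Gabrd from 41.7 to 108 (70.7). Gabrg1 ranged from 10.8 to 35.7 CPM (20.1) and Gabrg3 from 1.40 to 5.46 (3.02). Within the 8, Gabra6 made up 5.76% to 34.1% of the counts of a rat brain.

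Male and female rat brains did not differ beyond the spread for any subunit. In edgeR 0 of 8 were called, 0 had an unadjusted p below 0.05, and DESeq2 called 0, where 0.0583% of all genes were called. Gabra6 was 106 ± 37.0 CPM in males (SD, n = 15) and 105 ± 42.4 in females (n = 14), a log2 fold change of 0.01 with an SE of 0.21. The largest difference was that of Gabra4, -0.18 in males against females (SE 0.10, adjusted p = 0.578).

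Across the 29 rat brains, subunits moved in a pattern with 2 sides. Of 28 pairs, 22 correlated on log2(CPM + 1) by a permutation test of Pearson's r with 100000 resamples (adjusted p below 0.05 over the 28), 16 positively and 6 negatively. Gabra6 and Gabrd rose together (r = 0.75, adjusted p = 9.33e-05, which rests on the smallest p the resamples can give; Spearman rho = 0.64, adjusted p = 0.001, permutation), with r = 0.78 in the 15 males and 0.72 in the 14 females, and r = 0.72 without the 2 brains farthest from the median of Gabra6. Gabra6 and Gabra3 ran opposite to each other on scaled values (r = -0.68, adjusted p = 0.00028; rho = -0.66, adjusted p = 0.000467, permutation), with r = -0.78 in males, -0.62 in females and -0.71 without the 2 brains farthest from the median of Gabra3.

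The 6 negative pairs all set Gabra6 or Gabrd against an alpha 2, 3, 4 or 5 subunit. Gabrg1 and Gabrg3 had the highest Pearson r on scaled values (r = 0.84, adjusted p = 9.33e-05, permutation), and r was 0.78 without the 2 brains farthest from the median of Gabrg1. Their rho was 0.71 (adjusted p = 0.00028, permutation), below that of Gabra2 and Gabra3 (0.74). On plain totals without rats 1 and 4, Gabra2 and Gabra3 also had the higher r, 0.92 against 0.86. Without the brains of rats 1 and 4, 24 of 28 pairs passed. On plain library totals all 28 pairs were positive, with r from 0.64 to 0.99, and the brains of rats 1 and 4 were the lowest of their sex there for each of the 8 subunits. Without them 20 of 28 pairs passed on plain totals, an alternative chosen after seeing the data, and all 20 were positive, against 16 positive and 8 negative on scaled values. Gabra6 and Gabrd had r = 0.82 and Gabra6 and Gabra3 r = 0.17 (adjusted p = 0.429, permutation) on plain totals, so the positive relation stood under both scalings and the negative ones were seen on scaled values alone.

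**Figure D4:**
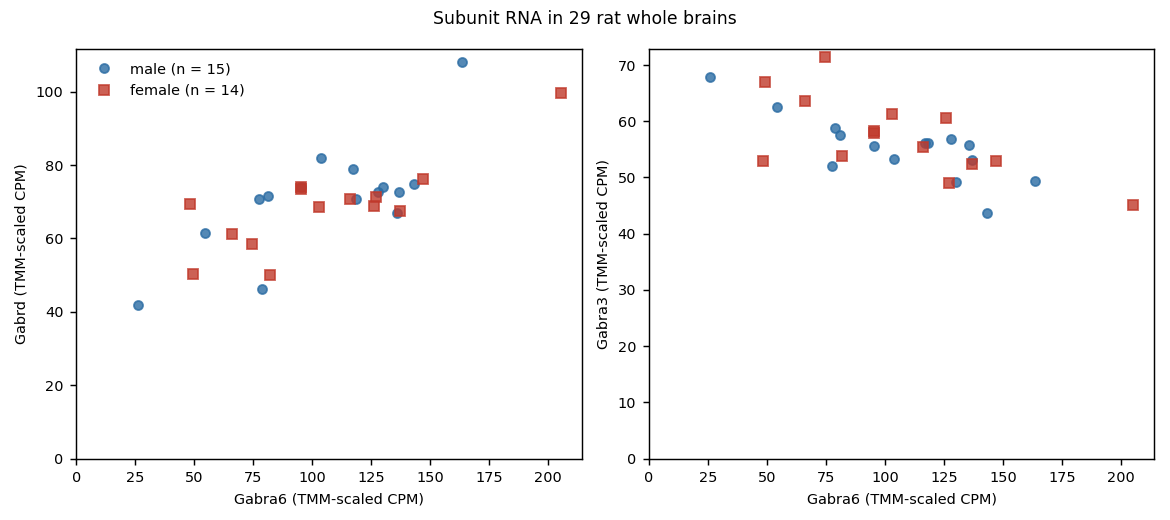
Gabra6 against Gabrd (left) and against Gabra3 (right) in 29 rat whole brains, both axes in TMM-scaled CPM from 0, circles for males and squares for females. Brains with more Gabra6, up to 205 CPM, had more Gabrd and less Gabra3 on this scale, in both sexes, and on plain totals without rats 1 and 4 the relation with Gabra3 had r = 0.17.

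The genes closest to each rat subunit over the 29 brains were found the same way among 9808 genes. Gabra6 was closest to Cnpy1 (r = 0.980), Cbln1 (0.979) and Neurod1 (0.969), of which the latter 2 are granule cell markers on the fixed list, and Gabrd to Car7 (0.895) and Shf (0.853). Gabrg1 was closest to Stim1 (0.951), Gnl3l (0.940) and Gda (0.938), and Gabrg3 to Necab1 (0.923), Gad2 (0.908) and Dcaf5 (0.898). Gabra2 followed Erc2 (0.903), Vstm2a (0.903) and Plppr4 (0.902), Gabra3 followed Cmip (0.843), Gnao1 (0.840) and Pfkp (0.830), Gabra4 followed Ttc19 (0.916), Dlg3 (0.905) and Kcna4 (0.902), and Gabra5 followed Ywhag (0.869), Pdha1 (0.843) and Rnf14 (0.841). Without rats 1 and 4 the genes named for Gabra6 stayed its 3 closest (r = 0.980, 0.978 and 0.977), and Cmip and Gnao1 stayed with Gabra3. Of the genes named, only Stim1 stayed among the 3 closest to Gabrg1, Erc2 for Gabra2 and Ttc19 for Gabra4. Rnf14 alone stayed for Gabra5 and Car7 alone for Gabrd, and none of those named for Gabrg3 did. The 6 granule markers summed to 211 to 985 CPM over the rat brains, and how much cerebellum or other tissue each library held was not tested.

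Sperm and ovary held traces of these RNAs. In sheep sperm 7 of 8 subunits were called lower than in brain (74.2% of all genes were called, 41.1% lower). Their median log2 fold change was -5.52 over the 8 against -0.42 over all genes tested. Rat sperm had 8 of 8 lower than male brain (59.1% called, 31.5% lower) with a median of -10.61 against -0.03. Rat ovary had 8 of 8 lower than female brain (56.9% called, 29.2% lower) with a median of -9.09 against 0.02. Most of these subunits passed the low-count filter through brain, with a median of 0 or 1 count per rat sperm library. The filter thus favoured a lower level in sperm and ovary, and the number of calls is no support for that direction. The medians do not change when genes at 0 counts are set to their bound, since those lie at the low end. With upper quartile factors the median of all genes in sheep sperm moved from -0.42 to 0.31, and with RLE factors to -0.17. The 7 calls stood under both, but the same filter was used there, so this is no support for their direction either.

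Markers of the labelled cells were present in sperm and ovary, together with those of other cells. Late spermatid and sperm markers summed to 48.9 to 1243 CPM in sheep sperm, 183 to 23378 in rat sperm and 1.24 to 5.51 in rat ovary, and they reached 34.3 in sheep cerebellum, close to the lowest sheep sperm library. Sheep sperm also held 1582 to 39945 CPM of 5 neutrophil markers and 784 to 21625 of 4 squamous epithelium markers. Rat sperm held up to 585 CPM of 5 microglia markers, 114 of 5 squamous and 49.0 of 5 neutrophil markers. Granulosa markers summed to 895 to 3522 CPM and theca and luteal markers to 7254 to 17023 in ovary. The part of such cells in the traces was not tested.

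Per library total, GABRA2 in sheep sperm was 0 CPM in sheep 687, 0.122 in 688, 0.219 in 690, 1.62 in 694 and 0.0422 in 699, against 18.8 to 231 in brain. GABRA5 had 0 counts in all 5 sperm libraries, where 3 counts over the group would be 0.0146 CPM, and so was at least 3476-fold lower than its brain mean of 50.9 CPM. GABRA6 was the member not called: it had 0, 0.0610, 0, 0.474 and 0 CPM in sperm, while 30 of 50 brain libraries had no count of it, and it was called higher in sperm by DESeq2, by edgeR without sheep 687 and by edgeR without the entorhinal library of sheep 687. All 8 subunits had 192 counts in sheep sperm, of which 54.7% came from sheep 694, where GABRG1 was 1.08 CPM.

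In rat sperm the 8 subunits had 210 counts in 15 libraries. Males 14, 3 and 7 gave 74.3% of them, and the libraries of males 16 and 17 had 0. Gabra6 had 0 counts in sperm and in ovary, which was at least 31370-fold lower than in male brain and at least 29075-fold lower than in female brain, with floors of 0.00407 and 0.00387 CPM from 3 counts over the group. Gabrg3 had 1 count in sperm, a ratio of brain to sperm of 2595 (95% counting interval 465 to 102549). Gabra4 had a count in 10 of 15 sperm libraries, the most of any subunit, and Gabra2 in 6.

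The ovary traces were more even. All 14 libraries held 30 to 79 counts of the 8 subunits, with a median of 59.5. Gabrg1 had 255 counts and a count in all 14 libraries (7 to 37 per library), Gabra4 had 193 and Gabra2 143, while Gabrd had 6 counts in 3 libraries. Gabrg1 showed the smallest fall from brain, -6.36 on the log2 scale (SE 0.22, adjusted p = 2.12e-22, edgeR). Gabrd fell by 13.05 (SE 0.24). With 6 counts in ovary it passed the low-count filter through brain, so its test is no support for that direction.

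Between ovary and rat sperm, 2 of 8 subunits passed the low-count filter (50.8% of all genes tested were called). Both passed it through ovary, with a median of 17.5 counts per ovary and 0 per sperm library for Gabrg1 and of 14 and 1 for Gabra4, so the filter favoured a higher level in ovary and the count is no support for that direction. Gabrg1 was higher by 3.03 on the log2 scale (SE 0.68, adjusted p = 0.000222) and Gabra4 by 1.31 (SE 0.53, adjusted p = 0.0280), the latter lost without the filter (adjusted p = 0.0901). Without the filter, and with DESeq2, 4 were called, 3 higher in ovary and 1 lower, which was Gabrd (log2 fold change -2.43, adjusted p = 0.0146, edgeR without the filter). Tissue and sex go together in this comparison and cannot be told apart.

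Neuron markers were low in the same libraries. The 6 markers summed to 1.28 to 26.8 CPM in sheep sperm, 2.71 to 95.7 in rat sperm and 66.8 to 136 in ovary, against 692 to 5616 in sheep brain and 4022 to 5936 in rat brain. SNAP25, a synaptic protein gene, had 0 to 19 counts in a sheep sperm library, 0 to 8 in a rat sperm library and 12 to 203 in an ovary. Among rat sperm libraries, males 14 and 7 had the most neuron marker counts, 4601 and 4419, with 77 and 37 subunit counts. SNAP25 had 0 counts in both, so other genes of the list made up those sums. Male 15 followed with 2050 marker counts and 1 subunit count. Whether the traces came from such cells was not tested.

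Of the other GABA receptor subunits, GABRP, the pi subunit known from reproductive tract tissue, was called higher in all 3 comparisons with brain: by 2.68 in sheep sperm, 3.34 in rat sperm and 6.88 in rat ovary on the log2 scale. It was the member of that list with the largest rise, while 8 of 10 in sheep sperm, 10 of 12 in rat sperm and 10 of 13 in ovary were lower. Of all genes tested, 41.1% were called lower in sheep sperm, 31.5% in rat sperm and 29.2% in ovary. GABARAP, which moves receptors and serves autophagy, was higher in sheep sperm (2.24) and rat sperm (1.92) while 6 of 8 scaffold and assembly genes were lower in each. The genes of GABA synthesis and transport were all lower among those tested, 7 of 7 in sheep sperm and 8 of 8 in each rat comparison with brain.

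**Figure D5:**
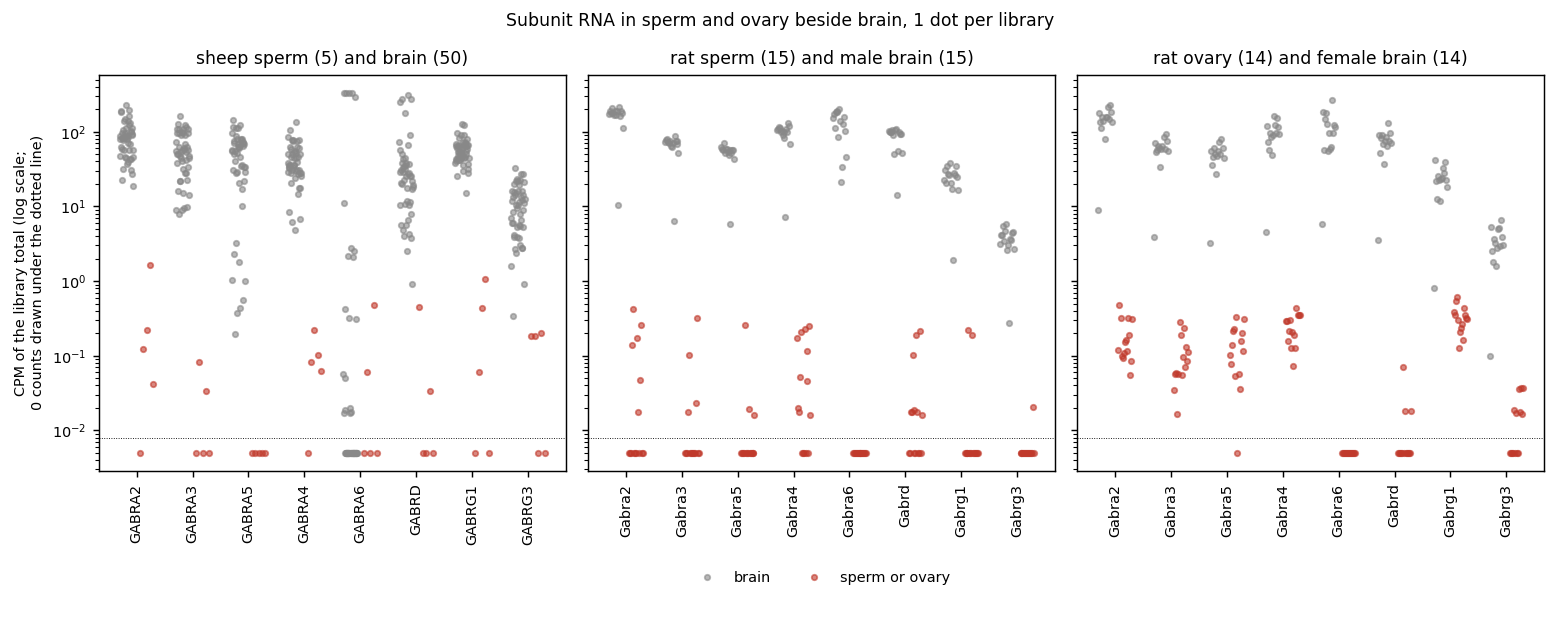
Subunit levels in sperm and ovary (red) beside brain (grey) on a log axis in CPM of the library total, 1 dot per library, with 0 counts drawn under the dotted line. In sheep, brain dots of GABRA5 reach down to 0.194 CPM and those of GABRA6 to 0, and in rat the brain dots lie above the sperm and ovary dots of the same gene.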

How the data were processed

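Poly(A) RNA of 55 sheep and 58 rat libraries was sequenced, and the authors deposited raw read counts per gene. Per the submitters' processing notes the tools included Trimmomatic 0.39, STAR 2.7.5a and Rsubread 2.20.0. The strand setting and the treatment of reads that fit several genes were not given in the sources used here, so counts of genes that overlap others are uncertain.

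The counts were tested with edgeR 4.0.16 (quasi-likelihood, TMM factors, filterByExpr, Benjamini-Hochberg over all genes tested) in R 4.3.3, within a species. Called means a log2 fold change of 1 or more either way with an adjusted p under 0.05. Shares and correlations used permutation tests in scipy 1.17.1. Intervals and floors (3 counts) cover counting error only. Alternatives used limma 3.58.1 (voom) and DESeq2 1.42.0, other factors, no filter, an animal block and left-out libraries. The edgeR script was tested on simulated data.

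Named were all 8 subunits, the called gene with the largest change in each direction of each GABA list, and the 3 genes most like each subunit. Some genes that this rule names are not reported here. The members and lists were chosen with earlier results of these data known. The same number marks the same animal, and 129 of 225 pairs of libraries from 1 sheep over 45 pairs of regions deviated together with r above 0.1. A planned description of protein sequences was not made.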

Additional observations from a re-analysis of the deposited data

Results flagged for a closer look

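In 8 of 79 groups of sheep libraries or subunits tested, the highest or lowest library lay farther from the rest than Dixon's 95% limit. That limit marks about 1 in 20 groups by chance only where values are normally spread. It was applied here to CPM without logs, and groups near 0 pass easily through 1 library with counts. The number of marked groups is therefore not measured against chance. GABRA2 in basal ganglia was 39.3 CPM in sheep 699 and 94.6 to 115 in the others. GABRD in cerebellum was 155 CPM in sheep 690 and 231 to 249 in the others. GABRD in pons was 21.6 CPM in sheep 687 and at most 4.37 in the others. That pons library was also the highest in SLC17A7, a forebrain excitatory neuron marker on the fixed list (103 CPM, next 31.5). It was highest in SNAP25 (1438, next 642) and FAT2 (25.0, next 11.2) too, though not in CBLN3 or NEUROD1. GABRA6 was 10.6 CPM in the entorhinal cortex of sheep 687, where the next library had 0.301, and 1.85 in the hippocampus of sheep 694, where the next had 0.0469. That hippocampus library also had the most FAT2 (5.00 CPM, next 0.422) and CBLN3 (7.70, next 3.94) of the hippocampal ones. The part of other cells in these flagged values was not tested. In sperm, sheep 694 had 1.62 CPM of GABRA2 and 0.474 of GABRA6, against at most 0.219 and 0.0610 in the others, and sheep 687 had 0.445 of GABRD, against at most 0.0339.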

How the results depend on the processing

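Of 651 recomputed values for 54 subunit results, 626 kept their direction and call, 24 kept the direction and lost the call, and 1 reversed: GABRA5 in prefrontal cortex at -0.15 without cerebellum and pons. That setting kept 4 of the 15 region calls it could retest, and 10 lost the call. The total also holds sperm and ovary results, whose direction the low-count filter favoured, so it does not measure how stable the region calls are. Region calls numbered 26 to 31 without 1 sheep, 28 with voom, 32 with DESeq2 and 38 with the adjusted p alone. With the animal as a replicate block there were 30: GABRA3 in prefrontal cortex was gained (1.01, adjusted p = 0.00153, edgeR), and no call was lost under the block. Between ovary and sperm 4 subunits were called without the low-count filter and 4 with DESeq2 (3 higher and 1 lower in both), against 2. For shares, 14 of 80 pairs passed against the 45 other libraries one by one, and 43 with centred log-ratios. Under the replicate block (sign flips over 5 sheep) 0 passed, since that test cannot reach the threshold, so it says nothing of stability. Without any 1 sheep 0 passed as well. There the test sets 4 libraries against 4 means, and it can pass only if many pairs reach its smallest p together. Coarse steps of the test and unstable shares cannot be told apart in that loss. Low counts limit every sperm and ovary value.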
